A study of Mus musculus with 2 samples.

Results

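The genes of the mitotic spindle, the kinetochore and cytokinesis are the machinery that separates chromosomes and divides the cell. The set was chosen as 41 named genes, and its members are the array probes whose transcript accession belongs to 1 of them. All 41 had a probe, 57 probes in all, among 20284 genes with a matching probe on the array. Of these members 40 were measured, which means that a probe was well above background in both pools.

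Total liver RNA was profiled from male C57BL/6 mice with liver fibrosis. One group received recombinant TSG-6 protein intravenously (labelled Rh_TSG-6), and the other received PBS as its control. Livers were taken 2 weeks later. Equal amounts of RNA from 3 mice made up each pool, and each pool went onto 1 one-colour Agilent array. All mice were fibrotic, the labels give no age and no method of fibrosis induction, and no liver without fibrosis was analysed here.

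In a dividing cell, Cdk1 with its cyclins starts mitosis, and Plk1 and the Aurora kinases build the spindle. Kinetochores, assembled on centromeres that carry the histone variant encoded by Cenpa, attach chromosomes to microtubules. The spindle checkpoint holds the anaphase-promoting complex until all chromosomes are attached. Separase then frees the sister chromatids, and the central spindle and contractile ring split the cell. Most of these genes are transcribed in the later part of the cell cycle, and the resting liver, whose hepatocytes rarely divide, holds little of their RNA. In bulk liver RNA, fewer dividing cells and less RNA per cell cannot be told apart.

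Values are scaled signals, given in percent of the 75th percentile of the signal on the same array, and a positive log2 difference means a higher level in TSG-6 than in PBS. A scaled signal depends on the probe, so levels of different genes are not set against each other. With 1 array per group there was no replicate of a pool and no test could be made. The error given after a log2 difference is the scanner software's own estimate for the spots, 0.20 for the median member, and it leaves out the spread between mice. Over 303 probes printed on several spots, the log2 difference varied between spots with a pooled SD of 0.15. Array and group cannot be told apart.

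Most members had less RNA in the TSG-6 pool. Among the 40 measured, 33 had a log2 difference below 0, against 42.5% of all 15151 measured genes. The median was -0.50, or 1.41-fold lower, and the median of all measured genes was 0.08. The lower and upper quartiles of the members were -0.74 and -0.07. Few differences were large: Cdk1, Melk and Aurkb were at least 2-fold lower, 3 of 40, where 4.29% of all measured genes were. Cenpm alone was at least 2-fold higher, 1 of 40, against 2.94% of all measured genes. In either direction 7.23% of all measured genes passed 2-fold. At 1.5-fold, a size chosen after the values were seen, 18 members were lower (10.3% of all measured genes) and 1 was higher (10.5%). The difference exceeded 2 times its software error in 22 members, of which 21 were lower and 1 was higher. The same count was not made over all measured genes, and this error leaves out the spread between mice.

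These counts depend on how the arrays are scaled. The members were at least 2-fold lower in 14 cases and higher in 1 after scaling to the spike-in controls, where 8.30% of all measured genes were lower and 1.40% higher. With flagged spots left out of the 75th percentile, 0 members were lower and 1 was higher, against 2.48% and 6.72% of all measured genes. Of all genes past 2-fold, 40.7% were higher in the main setting, 14.4% after spike-in scaling, 29.5% after median scaling and 73.0% with the unflagged percentile. A constant scaling cannot change the place of the members relative to other genes. Their median lay 0.58 below the median of all measured genes, and 33 of 40 members lay below that median.

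**Figure D1:**
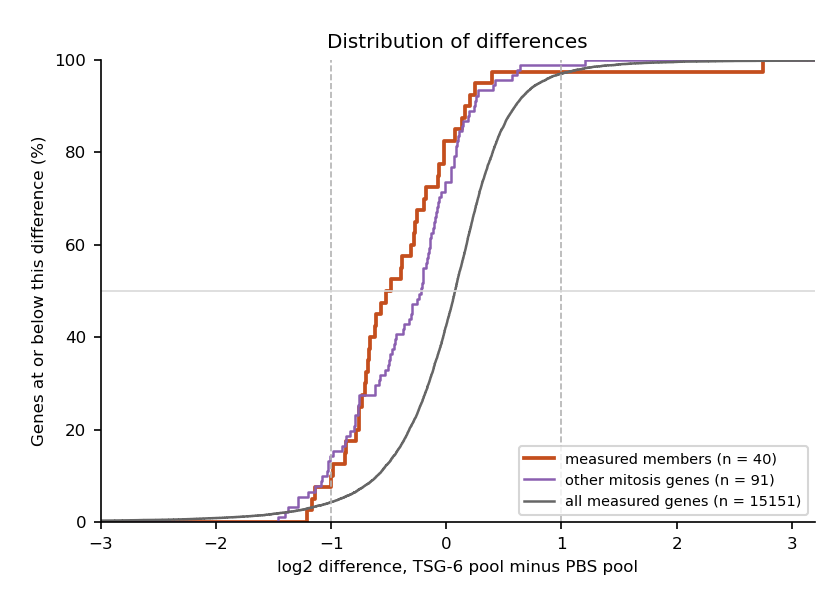
The plot gives the cumulative share of genes (y axis, %) at or below each log2 difference, TSG-6 minus PBS (x axis), for the 40 measured members, 91 other mitosis genes and all 15151 measured genes, with dashed lines at 2-fold. The members' line crosses 50% at -0.50 and that of all genes at 0.08, and the last step of the members, at 2.75, is Cenpm.

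The kinases of mitotic entry were lower, all 5 below 0. Cdk1, the cyclin-dependent kinase of mitosis, had a scaled signal of 21.6% in the TSG-6 pool and 48.4% in the PBS pool, 2.24-fold lower (log2 difference -1.16 ± 0.20, software error). Of its other 2 probes, 1 was at 20.1% in the TSG-6 pool and 32.2% in the PBS pool (-0.68), and 1 was at 9.15% in the TSG-6 pool and 6.73% in the PBS pool (0.44). The mean over its 3 probes was -0.47, so the 2-fold call rests on the probe of highest signal. Melk, a kinase of proliferating and progenitor cells, was at 7.16% in the TSG-6 pool and 15.8% in the PBS pool, 2.21-fold lower (-1.14 ± 0.21). Nek2, which separates the centrosomes, was at 17.8% in the TSG-6 pool and 30.7% in the PBS pool (-0.79). Aurka, the Aurora kinase of the spindle poles, was at 13.4% in the TSG-6 pool and 22.3% in the PBS pool (-0.74). Plk1, the polo-like kinase, had a difference within the software error, 11.7% in the TSG-6 pool and 12.3% in the PBS pool (-0.06 ± 0.21).

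The proliferation marker Mki67, which coats mitotic chromosomes, differed little. Its signal was 151% in the TSG-6 pool and 182% in the PBS pool (-0.27), and its second probe gave -0.29. Top2a, the topoisomerase that untangles sister chromatids, was at 15.2% in the TSG-6 pool and 25.7% in the PBS pool, 1.70-fold lower (-0.76 ± 0.21).

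The spindle checkpoint was lower as a group, with all 5 members below 0 and a median of -0.70. Bub1, a checkpoint kinase, was the only member printed in replicate, which gives its spot error directly. Over 10 spots it ran from 9.07% to 12.9% in the TSG-6 pool (median 11.7%). Over the 9 unflagged spots of the PBS pool it ran from 17.7% to 19.8% (median 18.0%). The log2 difference was -0.69, and the SD over spots was 0.13 in the TSG-6 pool and 0.06 in the PBS pool. These spots repeat 1 probe on 1 array per pool, so they measure neither the spread between mice nor the effect of array scaling. Zwilch, a subunit of the complex that brings dynein to kinetochores, was at 20.1% in the TSG-6 pool and 39.8% in the PBS pool (-0.98), and its second probe gave -0.84. Ttk, the kinase that starts checkpoint signalling, was at 2.53% in the TSG-6 pool and 4.65% in the PBS pool (-0.88 ± 0.23). Bub1b, whose product holds back Cdc20, differed less, at 15.9% in the TSG-6 pool and 19.3% in the PBS pool (-0.28). Mad2l1, the other Cdc20 inhibitor, was at 131% in the TSG-6 pool and 213% in the PBS pool (-0.70). Its other 2 probes disagreed, at -0.72 and 0.29, and under normexp background correction the probe at the higher value became the one of highest signal and gave 0.34.

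No core subunit of the anaphase-promoting complex is among the members. Its partners and targets, with separase, had a median of 0.08, the same as that of all measured genes, and 2 of 5 lay below 0. The 2 were Ube2c, the ubiquitin-conjugating enzyme that works with the complex, and Cdc20, its coactivator. Ube2c was at 80.6% in the TSG-6 pool and 123% in the PBS pool (-0.61). Cdc20 was at 34.9% in the TSG-6 pool and 48.5% in the PBS pool (-0.48). Separase (Espl1) was at 7.26% in the TSG-6 pool and 6.60% in the PBS pool (0.14). Its inhibitor securin (Pttg1) was at 491% in the TSG-6 pool and 412% in the PBS pool (0.25), with -0.13 by its second probe. Cdca3, a mitotic entry factor that the complex degrades, was at 62.7% in the TSG-6 pool and 59.5% in the PBS pool (0.08). All 3 were below 0 after spike-in scaling, between -0.25 and -0.07.

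The chromosomal passenger complex, which corrects faulty attachments and then guides cytokinesis, was lower in all 4 subunits. Its kinase Aurkb was at 2.22% in the TSG-6 pool and 5.12% in the PBS pool, 2.31-fold lower (-1.21 ± 0.25). It had the lowest difference of the 40 measured members. Under normexp its difference was -0.58, and it did not pass the stricter filter on dim probes. The scaffold Incenp was at 82.4% in the TSG-6 pool and 130% in the PBS pool (-0.66), with -0.54 by its second probe. Borealin (Cdca8) was at 24.8% in the TSG-6 pool and 39.3% in the PBS pool (-0.67), with -0.61 by its second probe. Survivin (Birc5) was at 135% in the TSG-6 pool and 178% in the PBS pool (-0.39), and its 3 probes ran from -0.39 to -0.29. The probes of each of these 3 subunits spread over at most 0.12.

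**Figure D2:**
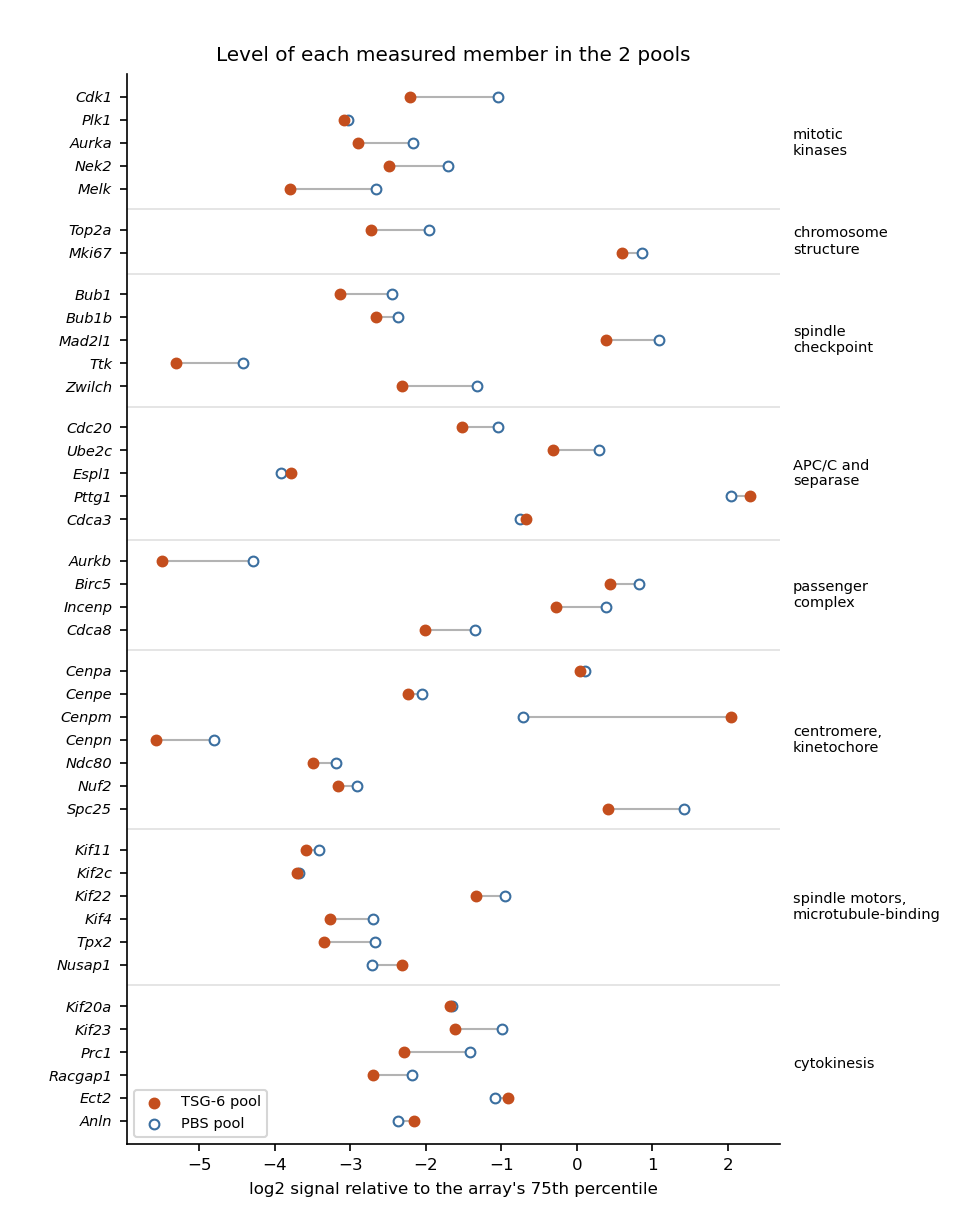
The plot gives the log2 signal relative to the 75th percentile of the array (x axis) of each of the 40 measured members (rows, by role) in the TSG-6 pool (filled) and the PBS pool (open). In 33 rows the TSG-6 point lies left of the PBS point, and Cenpm has the widest gap, with the TSG-6 point on the right.

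The centromere and kinetochore genes had a median of -0.25 over 7 measured members, with 6 below 0 and Cenpm above. Cenpm, a subunit of the constitutive centromere network, was at 410% in the TSG-6 pool and 60.7% in the PBS pool, 6.75-fold higher (2.75 ± 0.20). It had 1 probe on 1 spot per array, so no other spot or probe of the gene could be set beside it. The probe sequence was not available, so binding of another transcript to the probe could not be checked. Over the 10 alternative settings, which process that same spot again, Cenpm ran from 2.43 to 3.04 and stayed past 2-fold in all 10. The gene table lists 0 genes that overlap Cenpm. Its nearest measured neighbours did not share the difference: Tnfrsf13c, the BAFF receptor, was at -0.04 and 1500009C09Rik at 0.05.

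Spc25, of the Ndc80 complex that grips microtubules, was at 133% in the TSG-6 pool and 267% in the PBS pool, with a log2 difference of -0.9998 (± 0.20), just short of the 2-fold line, as was Zwilch at -0.98. Just past the line were Melk at -1.14 and Cdk1 at -1.16. The other listed subunits of that complex differed less. Ndc80 was at 8.87% in the TSG-6 pool and 11.0% in the PBS pool (-0.30), and Nuf2 was at 11.2% in the TSG-6 pool and 13.3% in the PBS pool (-0.25). Spc24, the direct partner of Spc25, is not a member and was looked at after its value was seen. It was at 577% in the TSG-6 pool and 250% in the PBS pool, 2.31-fold higher (1.21, from 0.89 to 1.497 over the alternatives). The 4 subunits of 1 complex thus ran from -0.9998 to 1.21, each by 1 measured probe. For the Spc24 probe, too, binding of another transcript could not be checked.

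Cenpn, which reads the Cenpa nucleosome, was at 2.11% in the TSG-6 pool and 3.57% in the PBS pool (-0.76 ± 0.26). Cenpa itself differed within the software error, at 103% in the TSG-6 pool and 108% in the PBS pool (-0.07). Cenpe, the kinesin that moves chromosomes to the spindle equator, was also within it, at 21.2% in the TSG-6 pool and 24.2% in the PBS pool (-0.19). Cenpf was not well above background in either pool, so no fold is given.

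Spindle motors and microtubule-binding proteins had a median of -0.28, with 5 of 6 below 0. Tpx2, the activator of Aurka, was at 9.77% in the TSG-6 pool and 15.7% in the PBS pool (-0.68). The chromokinesins Kif4 and Kif22 gave -0.57 and -0.38. Kif11, the motor that pushes the spindle poles apart, gave -0.17, and the microtubule depolymerase Kif2c -0.02, with -0.33 by its second probe. Nusap1, which bundles spindle microtubules, was the highest member after Cenpm, at 20.0% in the TSG-6 pool and 15.2% in the PBS pool (0.40 ± 0.21), and it was above 0 in every one of the 10 alternatives.

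The cytokinesis genes had a median of -0.27, with 4 of 6 below 0. Prc1, which cross-links the microtubules of the central spindle, was at 20.5% in the TSG-6 pool and 37.6% in the PBS pool (-0.87). Kif23 and Racgap1, the motor and the GTPase-activating subunit of centralspindlin, gave -0.62 and -0.53. Ect2, the exchange factor that activates RhoA, gave 0.16 ± 0.20, and anillin (Anln), a scaffold of the contractile ring, gave 0.21 ± 0.20, both close to the software error. Both were below 0 after spike-in scaling, at -0.16 and -0.11. Kif20a, which carries the passenger complex to the central spindle, was at 31.2% in the TSG-6 pool and 31.7% in the PBS pool (-0.02).

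**Figure D3:**
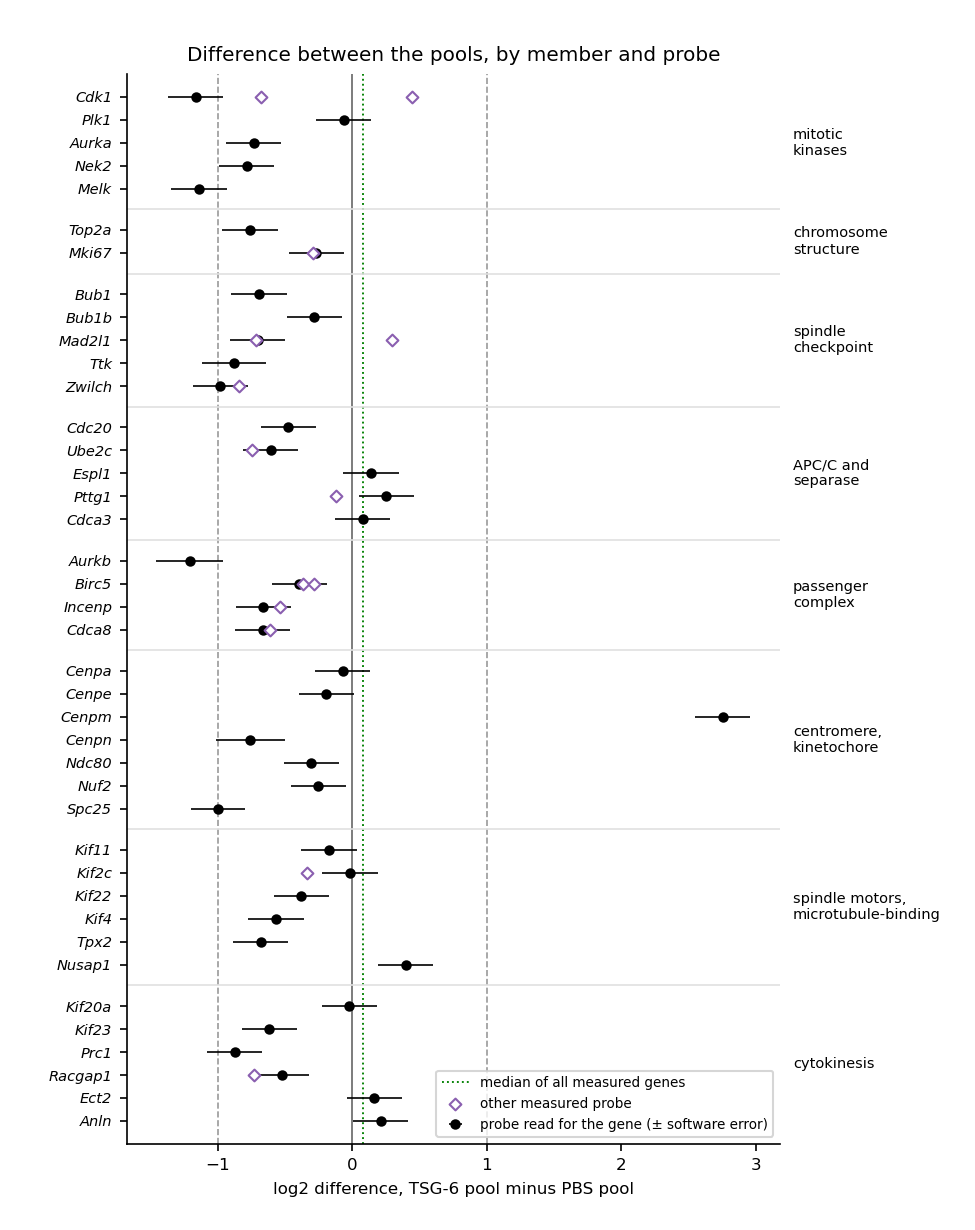
The plot gives the log2 difference, TSG-6 minus PBS (x axis), of each measured member by role; filled points are the probe read for the gene with the software error as bars, diamonds are its other measured probes, dashed lines mark 2-fold and the dotted line marks the median of all measured genes (0.08). Cdk1, Mad2l1 and Pttg1 are the rows whose probes fall on both sides of 0.

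Of the 40 measured members, 11 had several measured probes, and in 8 of these the probes lay on the same side of 0. The probes of Cdk1 spread over 1.61 on the log2 scale, those of Mad2l1 over 1.01 and those of Pttg1 over 0.38. The other 29 members rest on 1 probe each.

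Transcription of many G2 and mitosis genes is known to run through the cell cycle genes homology region (CHR), bound by the MuvB complex, and through CCAAT boxes bound by NF-Y. The RefSeq promoter table (GRCm38.p6, 250 bases before and 50 after the start) held 38 promoters of 36 members. The letters TTTGAA or TTCGAA of the CHR, on either strand, were in 78.9% of them, against 19.2% of all 32851 promoters of the table. CCAAT, on either strand, was in 76.3%, against 37.4% of all promoters, and both motifs were in 71.1%, against 7.52%. In 92 promoters of other mitosis genes, listed apart from the members, the CHR letters were in 51.1%, CCAAT in 56.5% and both in 31.5%. The CHR letters lay within 50 bases of the start in 71.1% of member promoters and in 5.51% of all promoters. A match is a description and not a binding site. The CHR and CCAAT letters can share at most 1 base, at their ends.

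The 27 measured members with CHR letters had a median of -0.48 and ran from -1.16 to 2.75, and the 8 without had a median of -0.32. The other 5, Aurkb, Incenp, Kif20a, Tpx2 and Zwilch, had no promoter entry and a median of -0.68, with all 5 below 0. The 250 bases before the start are shown for Cdk1 and Melk, both at least 2-fold lower, and Cenpm, the only member at least 2-fold higher. Top2a (-0.76), which is not at an end of the data, is shown as a lower member with many matches. Capitals mark the CHR and CCAAT letters on either strand.
Cdk1 (GRCm38.p6, chr10:69352913-69353162, minus strand): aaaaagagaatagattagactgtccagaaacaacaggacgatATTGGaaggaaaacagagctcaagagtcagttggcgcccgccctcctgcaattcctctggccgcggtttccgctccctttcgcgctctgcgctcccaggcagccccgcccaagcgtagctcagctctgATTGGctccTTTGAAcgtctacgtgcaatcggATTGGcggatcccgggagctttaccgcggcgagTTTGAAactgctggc
Melk (GRCm38.p6, chr4:44300667-44300916, plus strand): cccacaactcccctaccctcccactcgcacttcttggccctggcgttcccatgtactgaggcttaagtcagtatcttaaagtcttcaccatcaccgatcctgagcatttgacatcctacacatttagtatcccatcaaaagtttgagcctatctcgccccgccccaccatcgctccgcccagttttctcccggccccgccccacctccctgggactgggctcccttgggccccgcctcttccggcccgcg
Top2a (GRCm38.p6, chr11:99024190-99024439, minus strand): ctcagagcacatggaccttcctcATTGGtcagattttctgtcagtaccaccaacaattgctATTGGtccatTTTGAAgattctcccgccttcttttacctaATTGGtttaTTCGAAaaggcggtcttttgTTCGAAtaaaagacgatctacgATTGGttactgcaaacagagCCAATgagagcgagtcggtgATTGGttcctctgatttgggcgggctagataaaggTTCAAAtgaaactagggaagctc
Cenpm (GRCm38.p6, chr15:82244337-82244586, minus strand): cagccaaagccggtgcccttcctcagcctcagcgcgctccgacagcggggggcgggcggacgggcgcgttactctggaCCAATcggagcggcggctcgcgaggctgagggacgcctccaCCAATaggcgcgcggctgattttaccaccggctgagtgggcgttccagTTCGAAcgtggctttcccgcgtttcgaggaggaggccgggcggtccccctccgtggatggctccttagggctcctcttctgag
Cdk1 holds CHR letters starting 71 and 15 bases before the start. Melk holds neither motif in this window. Cenpm holds CHR letters 83 bases before the start and CCAAT at 172 and 131 bases before it.

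**Figure D4:**
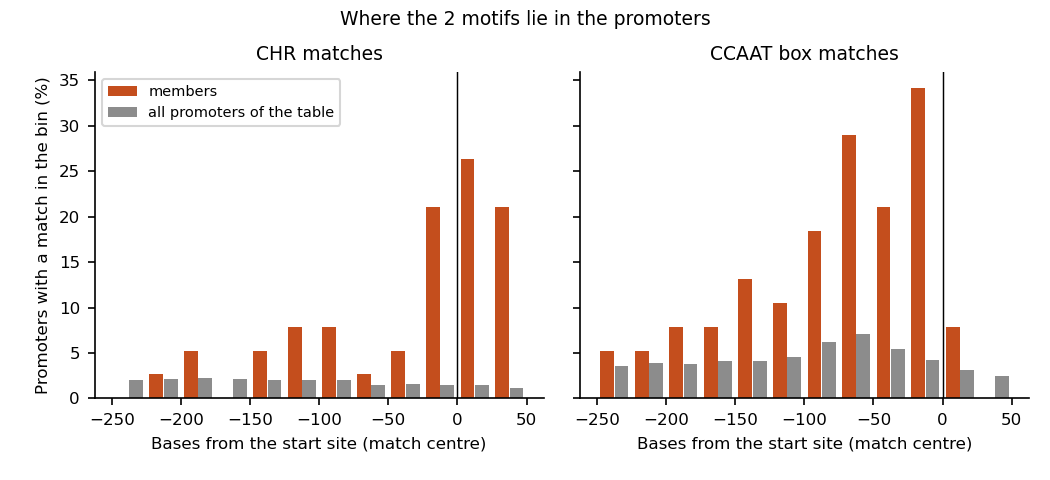
The bars give the share of promoters (y axis, %) with a CHR match (left panel) or a CCAAT match (right panel) centred in each 25-base bin by distance from the start site (x axis, bases), for the 38 member promoters and all 32851 promoters of the table. Member promoters reach 26.3% for the CHR letters in the bin just after the start and 34.2% for CCAAT in the bin just before it.

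Other genes of mitosis, listed apart from the members, were also lower. Of 101 such genes 91 were measured, with a median of -0.22, and 67 of the 91 lay below 0, against 42.5% of all measured genes. At least 2-fold lower were 13 of them (14.3%), against 4.29% of all measured genes. Only 1, Spc24, was at least 2-fold higher, against 2.94% of all measured genes. Outer kinetochore and checkpoint genes had a median of -0.58 over 17 genes, led by the shugoshin Sgo2a (1.55% in the TSG-6 pool and 4.08% in the PBS pool, -1.40) and Ska3 (-1.29). Spindle genes had a median of -0.42 over 18, led by Ckap2l (-1.38) and the centriole assembly factor Stil (-1.29). Like Sgo2a, these leading genes were dim and rest on 1 probe each. In the TSG-6 pool Ska3 was at 1.72%, Ckap2l at 1.87% and Stil at 1.85%. In the PBS pool they were at 4.20%, 4.85% and 4.51%. Condensin and cohesin genes had a median of -0.17 over 14, led by the condensin subunit Ncaph (-1.09) and the cohesin protector Cdca5 (-0.90). Regulators of mitotic entry and exit had a median of -0.15 over 20. Of these Pkmyt1, the kinase that holds Cdk1 inactive, was at 51.6% in the TSG-6 pool and 142% in the PBS pool (-1.46), and Cks1b, a Cdk-binding protein, gave -1.20. In this group 14 of 20 lay below 0. The cyclins Ccna2, Ccnb1 and Ccnb2 were at -0.58, -0.02 and 0.24. The listed and measured subunits of the anaphase-promoting complex, Anapc1, Cdc16, Cdc23 and Cdc27, were at 0.10, -0.09, 0.64 and 0.42. These cyclins and subunits were named after their values were seen. Inner kinetochore and centromere loading genes had a median of -0.22 over 14, led by Cenph (-1.08) and Cenpt (-0.77). Other cytokinesis genes had a median of -0.00 over 8, with Shcbp1 at -0.98 and Cep55 at 0.40. Of the listed genes of the same centromere network as Cenpm, Cenph, Cenpi, Cenpk, Cenpt, Cenpu and Cenpw were below 0, while Cenpo and Cenpp were at 0.04 and 0.07 and Cenpq was at 0.61. Those beyond Cenph and Cenpt were named after their values were seen.

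Marker lists of other cell types differed between the pools in both directions. Markers of activated stellate cells were lower: 11 of 11 were measured, 5 were at least 2-fold lower and 0 higher, with Acta2 at -2.47. Their summed level, in units of the 75th percentile, was 38.0 in the TSG-6 pool and 59.0 in the PBS pool. Markers of recruited macrophages summed to 45.6 in the TSG-6 pool and 55.3 in the PBS pool over 7 of 10 measured. Their median was -0.82, with 2 lower by at least 2-fold. Itgam, the only measured one above 0, was at 2464% in the TSG-6 pool and 1963% in the PBS pool (0.33). Markers of neutrophil precursors, cells that also divide, were at least 2-fold higher in 9 of 11. They summed to 37.6 in the TSG-6 pool and 14.7 in the PBS pool. Chil3, which made up most of the PBS sum, went the other way, at 478% in the TSG-6 pool and 794% in the PBS pool (-0.73). Cebpe was at 0.97. Markers of erythroid precursors summed to 79.4 in the TSG-6 pool and 61.4 in the PBS pool over 8 of 14 measured, with a median of 0.29 and 3 at least 2-fold higher. Klf1 was at 2.01 and Car1 at 2.36, Hemgn, which made up most of that sum, was at 0.51, and Hba-a1, Gata1 and Tfrc were at -0.13, -0.23 and -0.85, while Rhag and Epb42 were among those not above background in either pool. Markers of cholangiocytes and progenitor cells summed to 13.3 in the TSG-6 pool and 23.1 in the PBS pool over 6 of 8 measured, with a median of -0.34. Afp was at -3.60 and Spp1, also on the recruited macrophage list, at -0.82, while Krt19 was at -0.29, Cd24a at -0.05 and Krt7 at -0.02. T and NK cell markers summed to 5.01 in the TSG-6 pool and 5.28 in the PBS pool over 10 of 11. B and plasma cell markers summed to 14.1 in the TSG-6 pool and 11.1 in the PBS pool over 7 of 8, Kupffer cell markers to 55.4 in the TSG-6 pool and 47.2 in the PBS pool over 6 of 6, and endothelial markers to 18.9 in the TSG-6 pool and 16.7 in the PBS pool over 7 of 7. Hepatocyte markers, which check the tissue label, were strong in both pools, with a sum of 179 in the TSG-6 pool and 140 in the PBS pool over 7 of 9. On the log2 scale the ratio of sums was 0.37 for erythroid precursors, 0.35 for hepatocytes and 0.35 for B and plasma cells. It was 0.23 for Kupffer cells, 0.18 for endothelial cells and -0.28 for recruited macrophages. Spike-in scaling shifted the median of all measured genes by -0.32 and the unflagged percentile by 0.29, so differences of this size depend on the scaling. The part of these cell types in the members' differences was not tested.

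Across the 10 alternative settings, 23 of the 40 measured members were below 0 in all that measured them. Above 0 in all were 2, Cenpm and Nusap1, and 15 had both signs. How many of all measured genes kept their sign was not counted. The number of members below 0, 33 in the main setting, was 38 with spike-in scaling and 24 with the unflagged percentile. The median of the members was below 0 in each of the 10, from -0.82 to -0.21, and always below that of all measured genes, by 0.45 to 0.58. Settings that only subtract a constant per array cannot change that gap.

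**Figure D5:**
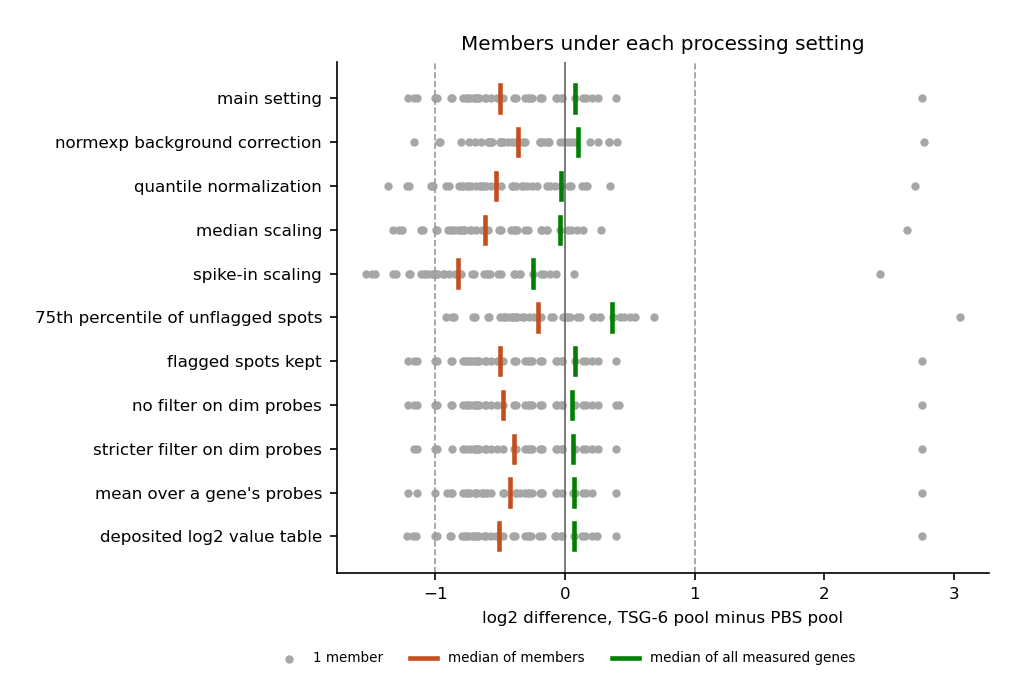
Each row is a processing setting, with the log2 difference, TSG-6 minus PBS (x axis), of each measured member (grey points), the median of the members (orange bar) and the median of all measured genes (green bar); dashed lines mark 2-fold. The orange bar lies left of the green bar in all rows, while the distance of both from 0 changes with the scaling.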

How the data were processed

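The files are 2 one-colour Agilent scanner files of pooled liver RNA, 1 for TSG-6 and 1 for PBS, and a value table. The authors deposited the intensity of each spot as a processed signal, background-subtracted and detrended, per the file headers, which name Agilent Feature Extraction 11.5.1.1. The submitters' processing notes name 10.7. The deposited log2 value table equalled the log2 processed signal minus 1 constant per array within 0.001 for 99.5% of probes (column medians -3.77 for TSG-6 and -3.90 for PBS). Its scale and direction are therefore known, and no centring of genes was found.

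Levels were log2 processed signals minus that array's 75th percentile, which was a signal of 2476 for TSG-6 and 3158 for PBS over 59305 non-control spots each. Control spots and spots with an outlier flag (6.44% on the TSG-6 array and 3.40% on the PBS array, with a median signal above that of all spots) were left out; 1 of 66 member spots was flagged on 1 array. Spots well above background were 73.9% on the TSG-6 array and 73.1% on the PBS array, and 0 were saturated. A probe counted as measured if 50% or more of its spots stood well above background on both arrays. Where a gene had several probes, the one detected on more arrays was used, and among those the one of highest signal. Accessions were matched without version to RefSeq symbols (assembly GRCm38.p6, names and promoters only; the array was designed on mm9), which named 26762 of 55681 probes.

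Genes were counted by a size of 2-fold, and no test was possible. All 41 members are named, with up to 2 genes of largest difference for each other group. Further genes of those groups are marked as named after their values were seen. Members and lists were chosen with earlier results of these data known. The steps were tested on simulated data. The software error of a log2 difference combines the error columns of both arrays. The files hold no mean spot signal, so normexp used the median spot signal with an offset of 50. Python 3.11.15, pandas 2.3.3 and limma 3.58.1 were used. One marker gene is not reported here.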

Additional observations from a re-analysis of the deposited data

How the results depend on the processing

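The count of members at least 2-fold lower, 3 in the main setting, was 1 under normexp background correction (2.65% of all measured genes), 6 after quantile normalization (4.996%), 5 with median scaling (5.37%), 14 with spike-in scaling (8.30%) and 0 with the 75th percentile of unflagged spots (2.48%). It was between 2 and 4 with flagged spots kept, with dim probes unfiltered or filtered more strictly, with probes averaged per gene and with the deposited table. The median over measured members, -0.50, was -0.82 with spike-in scaling and -0.21 with the unflagged percentile, and between -0.61 and -0.37 under the other alternatives. Scaling moved the median of all measured genes by the same amount, by -0.32 with the spike-ins and 0.29 with the unflagged percentile. The count at 1.5-fold, added after the data were seen, was 18 in the main setting (10.3% of all measured genes), 26 with spike-in scaling (22.8%), 8 under normexp (7.36%) and 7 with the unflagged percentile (5.49%). Cenpm was the only member at least 2-fold higher in all 10 alternatives, and no member past 2-fold in the main setting changed sign. Mad2l1 was at -1.03 with spike-in scaling and 0.34 under normexp. Under normexp, Melk was at -0.80 and Aurkb at -0.58; why was not tested. The stricter filter on dim probes left out Ttk, Aurkb and Cenpn. Leaving out a replicate was not possible with 1 array per group. No paired analysis was possible because each group has 1 array.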
